A study of Mus musculus with 4 samples.

Results

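The mouse genome encodes a large family of serpins, and 62 rows of the table of 41457 carry a name that begins with Serpin (no name ends in -ps). These 62 genes are described here in poly(A) RNA of cultured mouse colon tumour cells. The study sequenced 4 samples, 1 of control cells (genotype label control) and 1 each of the lines M8, M32 and M83, which share the genotype label ENU mutant. ENU, N-ethyl-N-nitrosourea, is an alkylating agent that mainly leaves point mutations. All 4 were grown in RPMI medium. The labels do not name the parent cell line, the strain, the animal, the mutated genes, or whether each line is 1 clone, and they do not say that the control and the lines came from 1 culture. Line and parent culture cannot be told apart from these labels. The table holds 1 column per sample, called a library here, although the series design speaks of triplicates.

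Serpins fold into a strained structure that exposes a reactive centre loop as bait for a protease. When an inhibitory serpin is cleaved in this loop, it changes shape and carries the protease with it, bound and distorted. The letter in a gene name gives the clade. Clade A holds mostly secreted liver serpins, clade B holds intracellular serpins that guard cells against proteases of their own or of cytotoxic lymphocytes, and clades C to G hold regulators of clotting, plasmin and complement. Some members inhibit nothing: Serpinh1 is a collagen chaperone, and Serpinf1 encodes PEDF, a secreted factor that acts on vessels and neurons.

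The libraries held between 25818148 (control) and 28879954 (M8) counts, and values are given as counts or as CPM, counts per 1000000 after TMM scaling (factors 0.986 to 1.03). Where 4 values follow each other without names they stand for control, M8, M32 and M83, and 3 values stand for the lines in that order. In bulk RNA, fewer cells of a type and less RNA per cell cannot be told apart. A count of 0 allows up to 3 counts, or 0.118 CPM in control. Even values were in excess among low counts, with 64.7% to 67% of values from 1 to 20 even in each library against 50.2% to 51% of values above 200 and up to 1000. Exact intervals treat each count as 1 event and are too narrow where counts come in pairs. For Serpinb8, Serpinb7 and Serpinb1a, which had few counts, bounds on counts divided by 2 are given too. Fibroblast and mesenchymal markers summed to 8142 to 10002 CPM over 10 genes. Most of that sum came from Vim, Col1a2, Fn1 and Col1a1 (means 4685, 1742.5, 1347 and 919 CPM). Thy1 was at 0 in every library, Lum had 0 to 8 counts and Dcn 2 to 48. Epcam, Cdx2 and Muc2 were at 0 in every library and the epithelial cadherin gene was nearly so (0 to 4 counts). The colon epithelial markers with at least 50 counts were Krt18 and Krt20 only, 2 of 14. Of 12 leukocyte markers and 9 hepatocyte markers none reached 50 counts in a library.

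Among the 62 serpin genes, 31 had no count in any library, 10 had 1 to 9 counts in the highest library, 12 had 10 to 49, and 9 had at least 50. The genes with at least 50 that are described are Serpinh1, Serpinb6a, Serpinf1, Serpinb9b, Serpinb9, Serpinb8, Serpinb1a and Serpinb7. All serpin genes together took 0.127%, 0.136%, 0.133% and 0.111% of the counts. Serpinh1 alone held 58.8%, 59.1%, 61.4% and 50.1% of these serpin counts, and Serpinb6a a further 29.7%, 28.5%, 22.1% and 30.9%.

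The clades differed in how many of their genes had counts. Of the 23 clade A genes in the cluster on chromosome 12 (103614786 to 104414329, GRCm38), 20 were at 0 in every library, among them all 6 Serpina1 genes, which encode alpha-1-antitrypsins, and all 10 Serpina3 genes listed. The remaining 3 genes, Serpina9, Serpina10 and Serpina12, summed to 0, 3, 0 and 3 counts, so nothing can be said of a difference in this cluster. The tested genes of chromosome 12 lay below control in M8 (median log2 ratio -0.52), and no clade A gene was among those tested. Near-identical copies could lose counts to each other there, since 57.6% of the 50-base words (every stretch of 50 bases in its transcripts) of Serpina1a occur in other genes, mainly Serpina1c. All 15 clade B genes of chromosome 13 (32842092 to 34002794) had a count, and 4 of them reached 50. On chromosome 1 (106861173 to 107610484) 5 of 12 clade B genes had a count, and the 4 Serpinb3 genes were at 0, as were Serpinb10, Serpinb11 and Serpinb12. Serpina7 on chromosome X, Serpini2, Serpine2 and Serpine3 were also at 0 in every library.

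**Figure D1:**
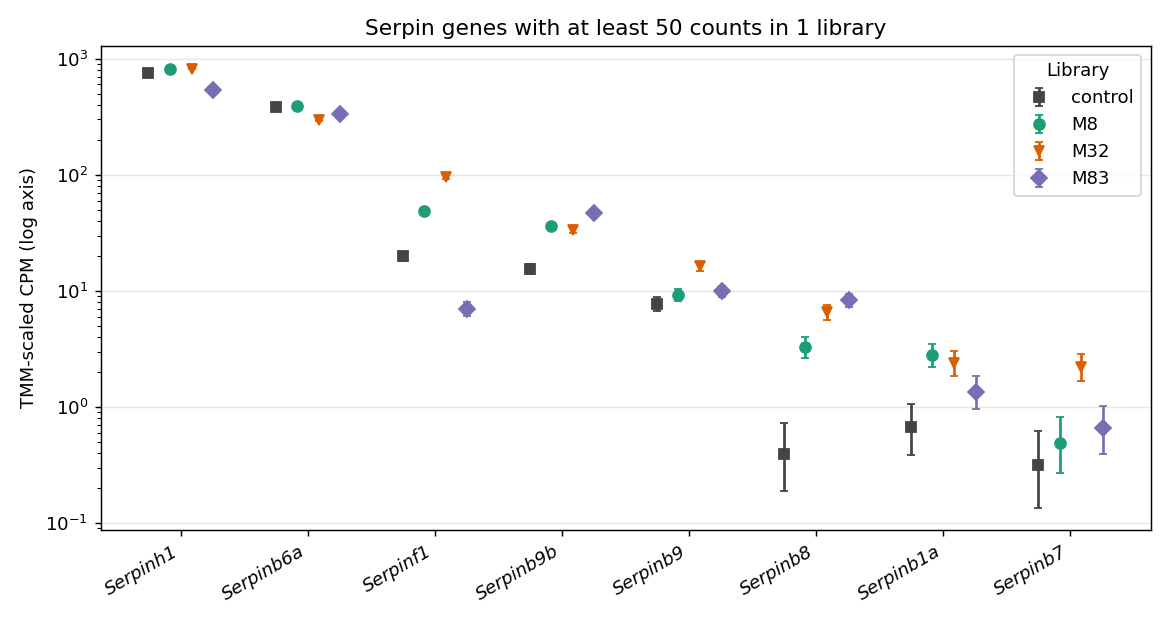
TMM-scaled CPM on a log axis of 8 serpin genes with at least 50 counts in 1 library, with 1 point per library and bars giving exact 95% Poisson intervals of the counts. Serpinh1 and Serpinb6a have the highest values of these genes in every library, and Serpinh1 is lowest in M83. Serpinf1 is highest in M32 and lowest in M83, and Serpinb8 is lowest in control.

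Promoter sequences are shown for 3 genes on which the results below turn, Serpinb8 and Serpinb9b, which were higher in every mutant line, and Serpinf1, which was higher in M8 and M32 and lower in M83. They come from RefSeq (GRCm38.p6), which had an entry for 53 of the 62 genes, and run 5′ to 3′ on the gene's strand. Each ends before the RefSeq or the GENCODE start, whichever lies further upstream. For Serpinf1 this was the GENCODE start, so the bases nearest its RefSeq start are left out. Capitals mark matches on either strand to any of 6 motifs. The core promoter element was searched as TATAAA, the box bound by NF-Y as CCAAT, and the Sp1 box as GGGCGG. The AP-1 site was searched as TGANTCA, the SMAD element as CAGAC and the heat shock element as GAANNTTC. No matches overlapped in these windows.
Serpinb8, chr1:107589756-107590005, plus strand: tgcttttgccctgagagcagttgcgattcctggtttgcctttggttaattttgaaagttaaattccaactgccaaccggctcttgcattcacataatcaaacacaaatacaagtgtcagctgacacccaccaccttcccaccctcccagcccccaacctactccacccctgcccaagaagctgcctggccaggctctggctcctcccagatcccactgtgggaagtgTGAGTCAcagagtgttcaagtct
Serpinb9b, chr13:33027164-33027413, plus strand: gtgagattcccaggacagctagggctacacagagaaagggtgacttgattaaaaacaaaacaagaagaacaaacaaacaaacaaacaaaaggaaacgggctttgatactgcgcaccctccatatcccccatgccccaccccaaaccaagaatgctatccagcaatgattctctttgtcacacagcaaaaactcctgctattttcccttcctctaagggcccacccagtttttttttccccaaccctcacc
Serpinf1, chr11:75422702-75422873, minus strand: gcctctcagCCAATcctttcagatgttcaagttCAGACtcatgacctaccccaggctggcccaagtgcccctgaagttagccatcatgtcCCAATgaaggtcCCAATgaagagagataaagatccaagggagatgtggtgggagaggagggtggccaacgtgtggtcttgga
The Serpinb8 window held 1 AP-1 match, which 6.75% of 32851 promoter windows of 250 bases also hold. The Serpinf1 window of 172 bases held 3 CCAAT matches and 1 CAGAC match. It was set against the 172 bases furthest upstream in each 250-base window, which leave out the bases nearest the RefSeq start. Of these stretches 23.6% and 32.2% hold at least 1 of each. None of the 6 motifs occurred in the Serpinb9b window. The windows were poor in CpG, with 2 in Serpinb8 and 2 in Serpinb9b against a median of 6. Serpinf1 held 1, against a median of 3 over the stretches of 172 bases. A match is a match of letters only, and no binding was measured.

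The 3 mutant lines were first set together against the control. Serpinb8 and Serpinb9b had the lowest p-values among the serpin genes, both with higher values in each line, and neither passed edgeR's test. Of the 18 serpin genes tested, 0 passed edgeR's quasi-likelihood test at an adjusted p under 0.05, where 0.00737% of all 13576 tested genes did. At an unadjusted p under 0.05 edgeR listed 3 of the 18 (Serpinb8, Serpinb9b and Serpinb9g), against 3.3% of all tested genes. DESeq2 called Serpinb8 and Serpinb9b, 2 of the 13 serpin genes it gave an adjusted p, against 0.316% of all genes. The fit has 2 residual degrees of freedom, and its p-values measure the spread between 3 different mutant lines, with the lone control assumed to vary like them. For each of the 8 serpin genes described below, edgeR's adjusted p for this comparison was 0.99982. Their log2 differences are given with a standard error (SE) that edgeR does not print. It was computed as the size of the difference over the square root of edgeR's F statistic.

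Among the 9 genes with at least 50 counts, 5 lay above control in every line (22% of all such genes did) and 0 lay below control in every line (22.1% of all such genes). The 5 were all of clade B: Serpinb1a, Serpinb7, Serpinb8, Serpinb9 and Serpinb9b. Serpinb1a, Serpinb7 and Serpinb8 reached 50 counts only in mutant libraries, so the count filter itself let them in through the lines. Over the 13 serpin genes with a mean of at least 10 counts the median log2 ratios over control were 1.23, 1.12 and 0.94, beside 0.02, -0.01 and 0.00 over all 12607 such genes. The medians rested on that filter in M8 and M32, where they were 0.57 and 0.12 over all serpin genes with any count. The 3 comparisons share the control library.

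Each line was then set against control by a rule of size, with no test, since each is 1 library. A gene counted when its log2 ratio was at least 2 in size (prior count 2), the higher library held at least 50 counts and the exact 95% interval of the ratio left out 2-fold. In M8, 1 of 8 serpin genes with enough counts was at least 4-fold higher (0.795% of all such genes) and 0 were at least 4-fold lower (0.564%). In M32, 3 of 9 were higher (1.13%) and 0 lower (0.277%). In M83, 1 of 7 was higher (1.08%) and 0 lower (0.275%). Serpinb8 was the gene that met the rule in each line, and Serpinb7 and Serpinf1 met it in M32 only. Serpinb8 and Serpinb7 reached 50 counts only in mutant libraries, so the count filter let them in through the lines where they were higher. The numbers of genes rest in part on that filter and support nothing about the family. Serpinb8 was also the 1 gene of the 9 that stood at least 4-fold apart in a single library, the control, where 1.51% of all genes with 50 counts stood apart in some library.

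A 2-fold threshold, with an interval that left out 1, took in more of the family. In M8 it held for 4 of 8 genes higher (3.73% of all genes) and 0 lower (2.05%), in M32 for 6 of 9 higher (4.86%) and 0 lower (1.15%), and in M83 for 2 of 7 higher (5.19%) and 1 lower (1.27%). The genes higher in M8 were Serpinb8, Serpinf1, Serpinb1a and Serpinb9b. In M32 Serpinb7 and Serpinb9 joined these, and in M83 Serpinb8 and Serpinb9b were higher while Serpinf1 was lower. Serpinb1a, Serpinb7 and Serpinb8 again passed the count filter only through mutant libraries, so these numbers support nothing about the family either.

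**Figure D2:**
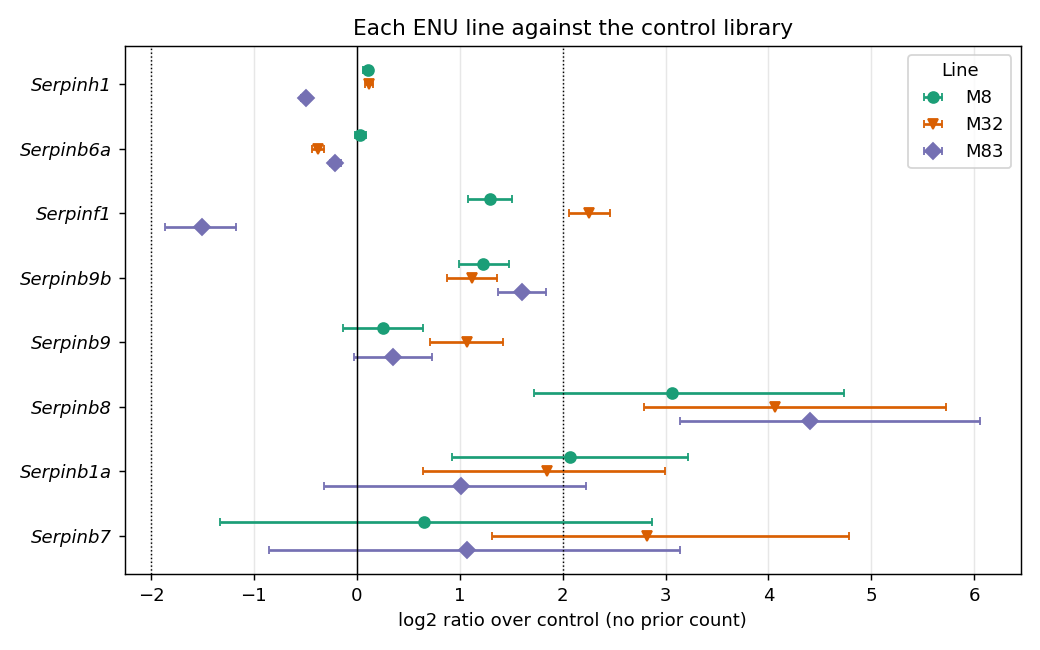
Log2 ratio of each mutant line over the control library for the same 8 serpin genes, with bars giving exact 95% intervals on counts divided by 2, a solid line at no difference and dotted lines at 4-fold. Serpinb8 lies far to the right in every line, and Serpinf1 lies to the right in M8 and M32 and to the left in M83.

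Serpinb8, an intracellular serpin known to inhibit the proprotein convertase furin, showed the widest difference. Its counts were 10, 93, 178 and 240, or 0.392, 3.27, 6.56 and 8.3 CPM. Control was the lowest library and the lines did not overlap it. The ratios over control were 8.33 (95% exact interval 4.33 to 18), 16.7 (8.89 to 35.5) and 21.2 (11.3 to 44.7). With counts divided by 2 the lower bounds were 3.29, 6.91 and 8.83. The log2 difference of lines and control was 3.93 (SE 0.784, DESeq2 adjusted p = 0.000204), and it ranked 17 by p among the 13576 genes. The lines also differed among themselves, with M83 above M8 by 2.54-fold (1.99 to 3.26).

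Serpinb8 spans bases 107590006 to 107610484 of chromosome 1 (plus strand), at the end of the clade B cluster. Among protein-coding genes with at least 50 counts in 1 library the nearest is Serpinb7, 137 kb away, and the next are Vps4b, Kdsr and Bcl2, at 793 to 876 kb. Serpinb7 lay above control in every line as well, with log2 ratios of 0.55, 2.56 and 0.92 on 8 to 60 counts. The log2 ratios of Vps4b, Kdsr and Bcl2 lay between -0.38 and 0.64 over the lines, far from those of Serpinb8. The medians over the tested genes of chromosome 1 were 0.19, 0.13 and -0.07. Furin itself had 4072, 4317, 4346 and 4297 counts, with log2 ratios of -0.07, 0.01 and -0.10.

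Serpinb7, also called megsin, was highest in M32. It had 8, 14, 60 and 19 counts. The ratio of M32 over control was 7.06 (95% exact interval 3.36 to 17.1, or 2.49 to 27.6 with counts divided by 2), while the intervals of M8 (0.614 to 4.31, or 0.399 to 7.31) and M83 (0.876 to 5.53, or 0.554 to 8.82) held 1. M32 also lay 4.5-fold above M8 (2.48 to 8.72) and 3.37-fold above M83 (1.98 to 5.97). The log2 difference of the lines was 1.82 (SE 1.2) and 0.84 without M32. The other clade B genes of this cluster that had counts were weak: Serpinb2, the plasminogen activator inhibitor PAI-2, had 4, 2, 2 and 20 counts, Serpinb5 (maspin) 7, 2, 0 and 6, and Serpinb13 0, 0, 0 and 2. In M83 the 11 markers of stratified squamous epithelium, a tissue in which these clade B genes are known to be expressed, summed to 20.8 CPM, beside 1.44 (M8), 1.95 (M32) and 3.64 CPM (control), with 5 of the 11 at 50 counts or more and Ivl at 0. Their part in the Serpinb2 values was not tested.

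The chromosome 13 cluster holds the inhibitors of granule proteases. Serpinb9b, which inhibits granzyme M in mice, had 392, 1026, 905 and 1349 counts, or 15.4, 36, 33.4 and 46.6 CPM. Control was lowest, and the lines averaged 38.7 CPM ± 7.02 (SD, n = 3). The ratios were 2.35 (2.09 to 2.64), 2.17 (1.93 to 2.45) and 3.04 (2.71 to 3.41). The log2 difference was 1.33 (SE 0.299, DESeq2 adjusted p = 0.0316), at rank 28 by p. Serpinb9b shares 0.478% of its 50-base words with other genes and overlaps the exons of Gm36099 on the opposite strand by 278 bases, and without a stated strand setting such reads cannot be told apart.

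Serpinb9, the granzyme B inhibitor with which cytotoxic lymphocytes and some tumour cells protect themselves, lies 9 kb from Serpinb9b and differed less. It had 198, 264, 441 and 286 counts. M32 was the highest library, 2.1-fold above control (1.77 to 2.49) and 1.75-fold above M8 (1.5 to 2.05), while the interval of M8 over control (0.99 to 1.44) held 1. The lines' log2 difference was 0.60 (SE 0.428), and 0.28 without M32. Gzmb itself and the neutrophil proteases Elane and Ctsg had 0 counts in every library, and 16 of 21 listed granzymes and granule proteases were at 0. Gzmm, the granzyme M gene, had 11, 15, 14 and 12 counts.

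Serpinb1a, an inhibitor of neutrophil elastase, proteinase 3 and cathepsin G, had 17, 80, 65 and 39 counts. Its ratios over control were 4.22 (2.48 to 7.59), 3.6 (2.08 to 6.55) and 2.02 (1.12 to 3.82). With counts divided by 2 the intervals were 1.9 to 9.33, 1.56 to 7.97 and 0.803 to 4.67, and the last, of M83, held 1. The log2 difference was 1.71 (SE 0.733). Serpinb6a, an intracellular inhibitor that can bind cathepsin G, was abundant and nearly level, with 9770, 11174, 8013 and 9596 counts. Its log2 difference was -0.17 (SE 0.24), and M32 was the lowest library at 0.772 of control (0.749 to 0.795). Its exons overlap those of Nqo2, Ripk1 and 1110046J04Rik on the opposite strand by 1587 bases.

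The remaining 11 chromosome 13 genes had few counts. The 5 genes Serpinb9c to Serpinb9g, paralogs of Serpinb9, summed to 9 (exact 95% Poisson interval 4.12 to 17.1), 67 (51.9 to 85.1), 40 (28.6 to 54.5) and 86 counts (68.8 to 106). This sum was chosen after its values were seen, and its intervals treat each count as 1 event. Serpinb9c had 4, 21, 15 and 45 counts, Serpinb9d 1, 6, 11 and 12, and Serpinb9g 0, 11, 10 and 5, each below every line in control, while Serpinb9e (4, 19, 4 and 17) and Serpinb9f (0, 10, 0 and 7) were no higher in M32 than in control. These copies cannot be fully told apart: 78.7% of the 50-base words of Serpinb9f, 54.9% of Serpinb9g and 30.8% of Serpinb9d occur in other genes, mainly each other and Gm11397. Serpinb6b had 8, 12, 30 and 20 counts, Serpinb1b 1, 10, 4 and 13, Serpinb6c 2, 0, 0 and 10 and Serpinb1c 6, 2, 2 and 0. Serpinb6d and Serpinb6e had at most 2 counts.

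Over all 12 serpin genes with 10 to 49 counts in the highest library, 6 lay above control in every line (28.6% of all genes in that range did) and 1 below (16.4%). The 6 were Serpinb1b, Serpinb6b, Serpinb9c, Serpinb9d, Serpinb9g and Serpini1. The 1 below, on the CPM scale, was Serpinc1. Each of the 6 had under 10 counts in control and entered this range through the mutant libraries, so their number supports nothing. Neighbouring genes had other values: Wrnip1, 19 kb from Serpinb1a, had log2 ratios of -0.14, -0.59 and -0.9998, and the medians over the tested genes of chromosome 13 were -0.01, -0.01 and -0.20.

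**Figure D3:**
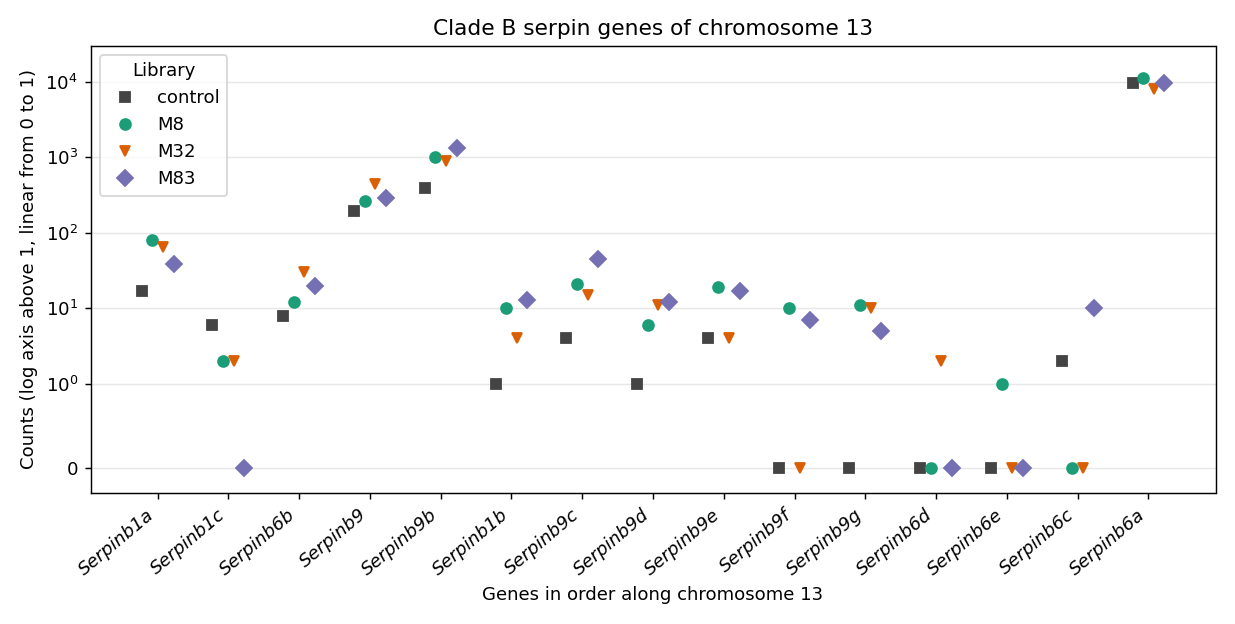
Counts of the 15 clade B serpin genes of chromosome 13, in their order along the chromosome, with 1 point per library on an axis that is linear from 0 to 1 and logarithmic above. Serpinb6a lies between 8013 and 11174 counts, and for Serpinb1a, Serpinb9b and the Serpinb9c, Serpinb9d and Serpinb9g copies the control point is the lowest.

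Serpinf1 had the widest range among the serpin genes with at least 50 counts in every library. It had 508, 1390, 2587 and 203 counts, or 19.9, 48.8, 95.4 and 7.02 CPM. M8 and M32 lay above control and M83 below it, so the lines sit on both sides. Of the 10 fibroblast and mesenchymal markers, 7 had at least 50 counts, with median log2 ratios of 1.05, 0.42 and 0.16 and summed levels of 8142, 8450, 10002 and 9274 CPM, and Thy1 was at 0. Col3a1 (1.99, 2.81 and 0.05) and Pdgfrb (1.40, 2.37 and 0.26) were at least 4-fold higher in M32, where 1.13% of all genes were. Unlike Serpinf1, Col1a1 (1.05, 1.52 and 1.39) and Pdgfra (1.05, 0.42 and 1.12) were higher than control in M83 too. Vim, Col1a2 and Fn1 lay between -0.43 and 0.16 over the lines. The part of these markers in the Serpinf1 values was not tested. The ratios of Serpinf1 over control were 2.45 (2.21 to 2.72), 4.79 (4.35 to 5.28) and 0.353 (0.298 to 0.416), and M32 lay 13.6-fold above M83 (11.8 to 15.8). The log2 difference of the lines together was 1.34 (SE 1.19) and 0.46 without M32.

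Serpinf1 spans bases 75409769 to 75422701 of chromosome 11 (minus strand), with no shared words and no overlapping exons. Smyd4, 4 kb away, had log2 ratios of -0.44, 0.50 and 0.45, and Wdr81, 18 kb away, 0.80, 0.56 and 1.04. Rpa1, 61 kb away, had -0.48, -0.17 and -0.22, and Prpf8, 64 kb away, -0.25, -0.09 and -0.10, so these neighbours lay on both sides of control in M83. Serpinf2, its neighbour in the same clade and the main inhibitor of plasmin in blood, had 2, 2, 0 and 2 counts.

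Serpins also restrain the plasminogen activators, and of their genes Plat but not Plau reached 50 counts. Plau, the urokinase gene, had 0, 0, 4 and 0 counts, and Plat, the tissue activator gene, had 114, 131, 211 and 111. Plaur, the urokinase receptor gene, had 4473, 4822, 2703 and 5159 counts, lowest in M32. Plg and F2, the genes of plasminogen and prothrombin, were at 0 and Vtn, the vitronectin gene, had 1 count in all. Lrp1, the receptor that clears serpin and protease complexes, had 36447, 51809, 64070 and 57292 counts, with log2 ratios of 0.35, 0.73 and 0.47. In the plasminogen list 10 of 18 genes had 50 counts, 0 passed edgeR and 0 met the 4-fold rule in any line, and the median log2 ratios were 0.00, -0.10 and 0.20.

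Serpinh1, the endoplasmic reticulum chaperone HSP47 that binds folded procollagen and is induced by heat shock, was the most abundant serpin gene, also per exon length. Per kilobase of exon its levels were 310, 333, 337 and 220 CPM, against 54.6 to 72.5 CPM per kilobase for Serpinb6a. It had 19322, 23180, 22310 and 15543 counts, so M83 was the lowest library. M83 lay at 0.71 of control (0.695 to 0.725) and the other lines at 1.08 (1.05 to 1.1) and 1.09 (1.07 to 1.11). The log2 difference was -0.06 (SE 0.293), and it was 0.10 without M83. The gene spans bases 99345376 to 99353239 of chromosome 7 (minus strand).

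Serpinh1 lay below control in M83 while the median of its collagen partners lay above; the difference between them was not tested. Of 22 collagen maturation genes with at least 50 counts, 13 were higher than control in all 3 lines (22% of all such genes) and 1 was lower in all 3 (22.1%). The list's median log2 ratios were 0.18, 0.22 and 0.23, and Serpinh1 in M83 was at -0.49. Fkbp14, a collagen-binding isomerase, had 21, 56, 129 and 135 counts and met the 4-fold rule in M32 and M83. It reached 50 counts only in mutant libraries, so the number of 13 rests in part on the count filter and supports nothing about the list. The 13 heat shock response genes had medians of 0.11, -0.18 and -0.22. The lowest of these in M83 were the mitochondrial chaperonin genes Hspd1 and Hspe1, at -0.56 and -0.54, and Hsph1, a co-chaperone of Hsp70, at -0.53. Hspa1b lay above control in every line, at 1.25, 0.73 and 0.63 (49, 133, 88 and 87 counts), and reached 50 counts only in mutant libraries. Hspa1a, in the same list but under 50 counts, went the other way with 8, 0, 0 and 0 counts. Bag3 (0.07) and Dnajb1 (-0.06) were nearly level in M83. In neither list did a gene pass edgeR.

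**Figure D4:**
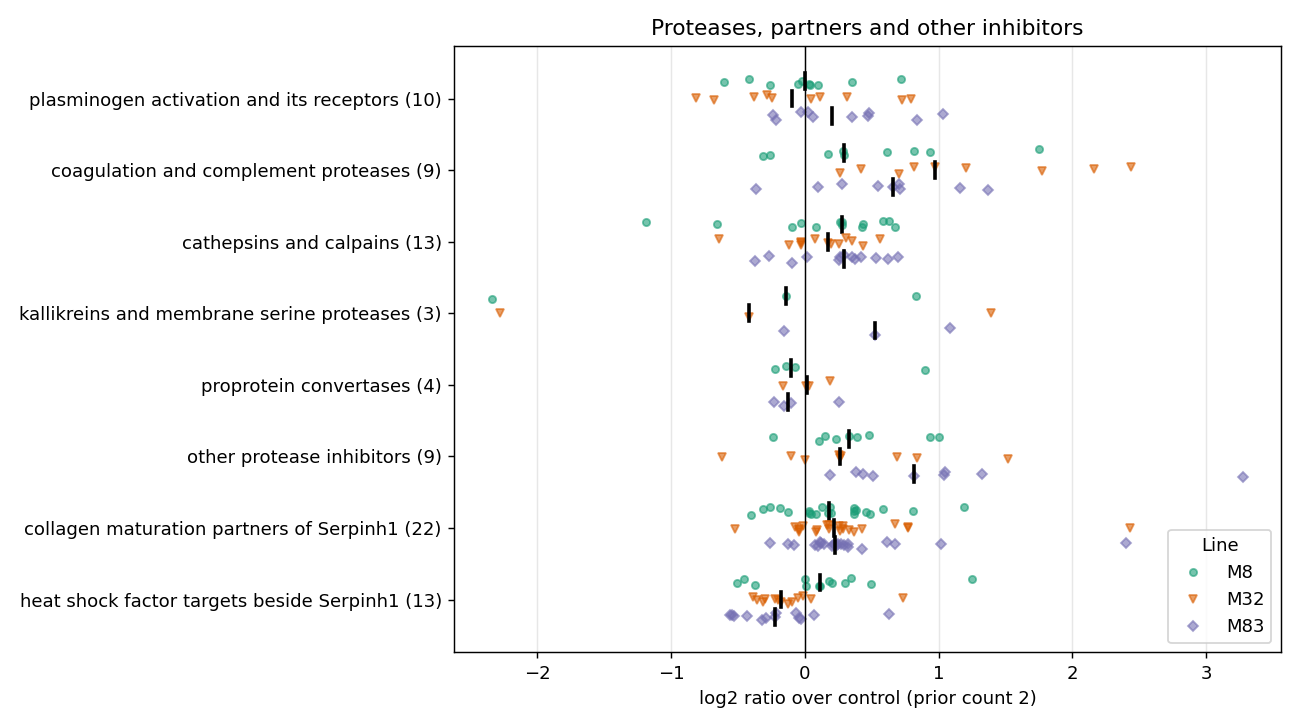
Log2 ratio over control in each mutant line of the genes with at least 50 counts in 8 lists of proteases, partners and other inhibitors, with 1 point per gene, black bars at the list's median and the number of genes in brackets. The list medians of collagen maturation genes lie right of 0 in every line, and those of coagulation and complement proteases are furthest right in M32.

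Secreted serpins of the clotting and complement systems were nearly absent. Serping1, the inhibitor of the complement proteases of the C1 complex, had 4, 8, 14 and 1 counts. Serpinc1, antithrombin, had 9, 4, 7 and 10, but its exons overlap those of Zbtb37 on the opposite strand by 2942 bases. Serpini1, neuroserpin, had 4, 16, 10 and 18, and Serpind1, heparin cofactor II, had 0, 2, 2 and 0. Of the proteases, C1s1 and C1ra, the targets of Serping1, had 89, 192, 328 and 78 and 231, 317, 484 and 384 counts. Masp1, a lectin pathway protease, met the 4-fold rule in M32, with 578, 1138, 3345 and 1076 counts, and so did Prss23 with 20, 80, 102 and 62. In this list 9 of 26 genes had 50 counts, 6 of them above control in every line (22% of all such genes) and 2 at least 4-fold higher in M32 (1.13%), 0 passed edgeR and the median log2 ratios were 0.30, 0.97 and 0.66. Prss23 reached 50 counts only in mutant libraries, so these numbers rest in part on the count filter and support nothing about the list.

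Other inhibitors and proteases gave few large differences, and 0 of them passed edgeR. Among 9 other protease inhibitors with at least 50 counts 6 were higher than control in all 3 lines, beside 22% of all such genes (medians 0.33, 0.26 and 0.81). Timp3, a matrix metalloproteinase inhibitor and 1 of the 6, met the 4-fold rule in M83 with 8, 20, 28 and 106 counts. It reached 50 counts only in M83, so these numbers rest in part on the count filter and support nothing about the list. Ctsl, a lysosomal cathepsin, had 48782, 57579, 33184 and 42632 counts, and the 13 cathepsin and calpain genes had medians of 0.28, 0.17 and 0.30. Tmprss11e, a membrane serine protease gene, had 80, 16, 16 and 81 counts, and met the rule as lower in M8 and M32. Of the 21 kallikreins and membrane proteases listed 3 had 50 counts (medians -0.14, -0.42 and 0.52), and of 9 proprotein convertases 4 did (medians -0.11, 0.02 and -0.13).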

How the data were processed

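Poly(A) RNA of 4 samples was sequenced on an Illumina instrument after RNeasy Micro extraction and NEBNext Ultra II library preparation, per the labels' protocols. The authors deposited raw counts per gene, whole numbers with no normalisation, and the submitters' processing notes name genome build GRCm38. For the aligner, counter, annotation and strand setting, and for how triplicates were handled, the answer is not given in the sources used here. Groups came from the genotype label. The 3 lines serve as replicates only in that each carries the label ENU mutant.

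Counts were scaled with edgeR 4.0.16 (R 4.3.3, TMM factors over genes kept by filterByExpr) and tested over the whole table with the quasi-likelihood F-test, Benjamini-Hochberg adjusted over 13576 genes, threshold 0.05. DESeq2 1.42.0, library-size scaling, no filter and leaving out each line were alternatives. Single lines had no test: log2 ratios used a prior count of 2, and intervals are 95% Clopper-Pearson intervals that cover counting error only, as no molecular identifiers are named. The interval on counts divided by 2 was added after seeing the data. Positions, exon lengths and shared words come from GENCODE vM21 (41434 of 41457 identifiers matched). Every serpin gene is counted, and those with 50 counts are described in full, except 1 that is not reported here. From each list up to 4 genes, those meeting the 4-fold rule first, and 16 known partners could be named, and not all of these are reported. The serpin genes and all lists were chosen with earlier results of these data known. The scripts were tested on simulated data.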

Additional observations from a re-analysis of the deposited data

Results flagged for a closer look

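Serpinf1 was the only one of the 9 serpin genes with at least 50 counts that was at least 2-fold higher than control in 1 line and at least 2-fold lower in another. Its log2 ratios over control were 1.29 (M8), 2.26 (M32) and -1.49 (M83). The difference between the lines was not tested, since each is 1 library.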

How the results depend on the processing

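The count of serpin genes called for the lines against control was 0 and became 2 in DESeq2 (Serpinb8 at 3.94 with adjusted p = 0.000204, Serpinb9b at 1.33 with adjusted p = 0.0316). It was 0 to 0 without each line in turn. Over all genes the count was 1, and it was 40 in DESeq2, 2 with no filter on low counts and 1 to 1 without each line in turn. The 4-fold rule took in 1 serpin gene in M8, 2 there with a prior count of 0.5 and 4 at 2-fold, 3 in M32 and 6 at 2-fold, and 1 in M83, 2 with 20 counts as the minimum (Serpinb9c joined) and 3 at 2-fold. Genes set apart in 1 library numbered 1, and 4 at 2-fold. The median of serpin genes with any count was 0.57 in M8 and 0.12 in M32. Intervals on counts divided by 2 changed no count of the 4-fold rule. The log2 difference of Serpinh1 was -0.19 to 0.10 without each line in turn and changed sign without M83. Of the 84 alternative values, 70 stayed the same or close to the main value and 11, all counts or medians, moved further from it. Among the log2 differences 2 gained a call, both in DESeq2, and 1 changed sign. The cause of the changes was not tested. No paired analysis was possible because the control is 1 library and the labels give no replicate numbers. Few counts per gene limit Serpinb7, Serpinb8, Serpinb1a and every serpin gene under 50 counts.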
